A study of Homo sapiens with 6 samples.

Results

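Sprouty and SPRED proteins are inhibitors of the pathway that runs from receptor tyrosine kinases through RAS, RAF and MEK to the kinase ERK. The 6 genes SPRY1, SPRY2, SPRY4, SPRED1, SPRED2 and SPRED3 were taken by exact match of their symbols in a table of 63140 genes, and each symbol matched 1 row. All 6 passed the filter on low counts, which 16754 genes passed. They were read in RNA sequencing libraries from HEK293, an established human embryonic kidney cell line, with 3 libraries per group. One group had received GSK-A1, an inhibitor of phosphatidylinositol 4-kinase alpha, at 100 nM for 24 h as confluent cultures. The other had received the solvent dimethyl sulfoxide (DMSO). The protocol text with the dose stands on the records of both groups, and the treatment tag tells them apart. Titles number the libraries as biological replicates and do not say whether cultures were handled on separate days, so the errors below measure the spread between these libraries.

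Sprouty proteins are made in response to growth factor signalling and then dampen it, which makes them feedback inhibitors. They carry a conserved tyrosine near the amino terminus and a cysteine-rich carboxy-terminal domain that holds them at membranes. SPRED proteins share that cysteine-rich domain but begin with an EVH1 domain, which binds neurofibromin, the RAS GTPase-activating protein encoded by NF1. In the developing kidney, SPRY1 is known for restraining signalling by the receptor RET in the ureteric bud.

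With GSK-A1, 4 of the 6 members rose and none fell. SPRY4 rose 2.18-fold, and SPRED1, SPRED2 and SPRY1 rose by 24.6%, 22.4% and 13.7%. SPRY2 and SPRED3 did not pass the test, with estimates of 5.79% and 7.64% above DMSO. In bulk RNA a difference in the number of cells that express a gene and a difference in RNA per cell cannot be told apart. Over all genes tested, 22.9% were called in either direction, 12% as higher and 10.9% as lower with GSK-A1 (edgeR quasi-likelihood test, Benjamini-Hochberg adjusted p under 0.05). The number called over all genes was 3835, and it was 2163, 2213 and 2206 when DMSO replicate 1, 2 or 3 was left out. Under upper-quartile library factors 33.25% of the calls were higher, against 52.33% here. The median log2 fold change of the 6 members was 0.24, and that of all genes tested was -0.01. The Sprouty members held 2 of the 4 calls and the SPRED members the other 2.

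The sequence at a RefSeq start of 3 members is shown. SPRY4 rose most, SPRY2 is a Sprouty gene that was not called, and SPRED2 is the most abundant member. Each run holds the 250 bases before and the 50 bases after a RefSeq transcript start on GRCh38.p14, written 5′ to 3′ on the gene's strand. Where RefSeq lists several starts, the most upstream is printed, and gene counts do not show which start was used. For SPRY4 the window lies inside the gene as GENCODE 29 draws it. The GENCODE start of SPRY4, at 142326455 on the minus strand, was not searched. Capitals mark matches, on either strand, to the searched motifs. The motif of ETS factors was searched as CCGGAA. The EGR motif, bound by zinc-finger factors such as EGR1, was searched as GCGNGGGCG. The box of SP1, a factor common at promoters rich in G and C, was searched as GGGCGG. The other motifs searched were the cyclic AMP response element, as TGACGTCA, the TATA box, as TATAAA, and the AP-1 site of FOS and JUN proteins, as TGANTCA. EGR and SP1 matches can overlap.
SPRY4, chr5:142324198-142324497, minus strand: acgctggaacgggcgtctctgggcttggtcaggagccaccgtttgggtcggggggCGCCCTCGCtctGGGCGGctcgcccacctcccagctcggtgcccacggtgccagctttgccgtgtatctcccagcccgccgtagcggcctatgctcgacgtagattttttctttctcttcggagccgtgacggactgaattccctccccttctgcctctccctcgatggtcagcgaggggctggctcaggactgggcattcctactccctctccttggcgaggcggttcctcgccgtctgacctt
SPRY2, chr13:80341077-80341376, minus strand: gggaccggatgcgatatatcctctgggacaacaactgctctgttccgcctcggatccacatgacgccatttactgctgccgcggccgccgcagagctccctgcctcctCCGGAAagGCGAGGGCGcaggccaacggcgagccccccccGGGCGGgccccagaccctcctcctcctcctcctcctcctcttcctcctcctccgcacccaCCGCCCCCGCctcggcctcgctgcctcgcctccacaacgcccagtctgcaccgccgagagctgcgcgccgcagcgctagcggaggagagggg
SPRED2, chr2:65432550-65432849, minus strand: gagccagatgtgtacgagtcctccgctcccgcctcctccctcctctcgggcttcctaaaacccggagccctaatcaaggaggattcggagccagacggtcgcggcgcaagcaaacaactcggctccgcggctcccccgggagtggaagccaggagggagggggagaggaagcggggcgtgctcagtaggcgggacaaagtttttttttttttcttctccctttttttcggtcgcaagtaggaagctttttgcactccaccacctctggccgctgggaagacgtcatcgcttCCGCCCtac

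The SPRY4 run held 1 EGR match at -195 and 1 SP1 match at -183 from the transcript start, and no ETS match. The SPRY2 run held 1 ETS match at -142, EGR matches at -134 and -41, and SP1 matches at -102 and -42. The SPRED2 run held a single SP1 match at 42. Of 35113 human promoters of the same length, 17.3% held an ETS match, 9.44% an EGR match, 45% an SP1 match, 7.71% an AP-1 match, 11.5% a TATA box and 1.85% a cyclic AMP response element. The other listed SPRED2 start held AP-1 matches at -6 and 35 and a TATA box at -31. The SPRED3 starts held an SP1 match at -56 and an AP-1 match at -60, one each, and another SPRY2 start held an SP1 match at 24. No listed start of a member held the cyclic AMP response element. SPRED1, at its only listed start, held 1 SP1 match, and the second of 2 listed SPRY1 starts held an ETS match at -67, an EGR match at -28 and SP1 matches at -140 and -24. An EGR match was thus held by SPRY4, which rose most, by SPRY1, and by SPRY2, which was not called. Those windows were 65%, 69.3% and 71% G and C, and promoters of like G and C content were not compared. The shares over 35113 promoters are per window, while some members had several listed starts. These matches describe letters in a window and no binding was measured.

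SPRY4 (ENSG00000187678) lies on chromosome 5 at 142310427 to 142326455 on the minus strand of GRCh38. Its product dampens signalling by fibroblast growth factor receptors and binds the kinase TESK1. Normalised expression, as reads scaled to a common library total after TMM adjustment (CPM), was 8.20, 8.18 and 9.84 in DMSO replicates 1 to 3. With GSK-A1 it was 19.6, 18.9 and 18.1 CPM. Every GSK-A1 library lay above every DMSO library, with a gap wider than the spread of either group. Such a separation between the groups, in either direction, was seen in 40.5% of all genes tested. The group means were 8.74 ± 0.95 CPM with DMSO and 18.9 ± 0.7 CPM with GSK-A1 (SD, n = 3). The log2 fold change was 1.13 ± 0.07 (SE), with a 95% interval from 0.97 to 1.29 and an edgeR adjusted p of 3.15e-08. By p-value SPRY4 ranked 23 and by log2 fold change 52 among the 16754 genes. It was called in each of 17 alternative analyses, with log2 fold changes from 1.08 to 1.21.

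SPRY1 (ENSG00000164056; chromosome 4, 123396795 to 123403760, plus strand) is the Sprouty gene named above for its role with RET. Its DMSO libraries read 17.2, 18.8 and 17.9 CPM, and its GSK-A1 libraries 20.9, 19.7 and 20.7 CPM, each in replicate order. The groups did not overlap, but DMSO replicate 2 and GSK-A1 replicate 2 lay within 1 CPM of each other. This gave a log2 fold change of 0.19 ± 0.06 (SE; 95% interval 0.06 to 0.31; edgeR adjusted p = 0.0295). This call was narrow. It was lost under upper-quartile factors (0.14, edgeR adjusted p = 0.0841) and without DMSO replicate 1 (0.15, 0.142) or DMSO replicate 3 (0.18, 0.0946). It was likewise lost when replicate 1 (0.18, 0.093) or replicate 3 (0.18, 0.0585) of the GSK-A1 group was left out. Over the 17 alternatives adjusted p lay between 0.00242 and 0.142, with the same direction throughout.

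SPRY2 (ENSG00000136158; chromosome 13, 80335976 to 80340951, minus strand) encodes the Sprouty protein best known for binding the ubiquitin ligase CBL and the adaptor GRB2. The DMSO libraries read 15.8, 16.0 and 15.9 CPM and the GSK-A1 libraries 16.97, 17.1 and 16.4 CPM. The 3 GSK-A1 libraries lay above the 3 DMSO libraries by a small margin. This gave a log2 fold change of 0.08 ± 0.06 (SE), which edgeR did not call (adjusted p = 0.326), and its 95% interval ran from -0.04 to 0.20. That interval runs from a fold of 0.974 to one of 1.15. It leaves out the size seen for SPRY4 but includes the estimate for SPRY1, a fold of 1.14. SPRY2 was not called in any of the 17 alternatives.

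**Figure D1:**
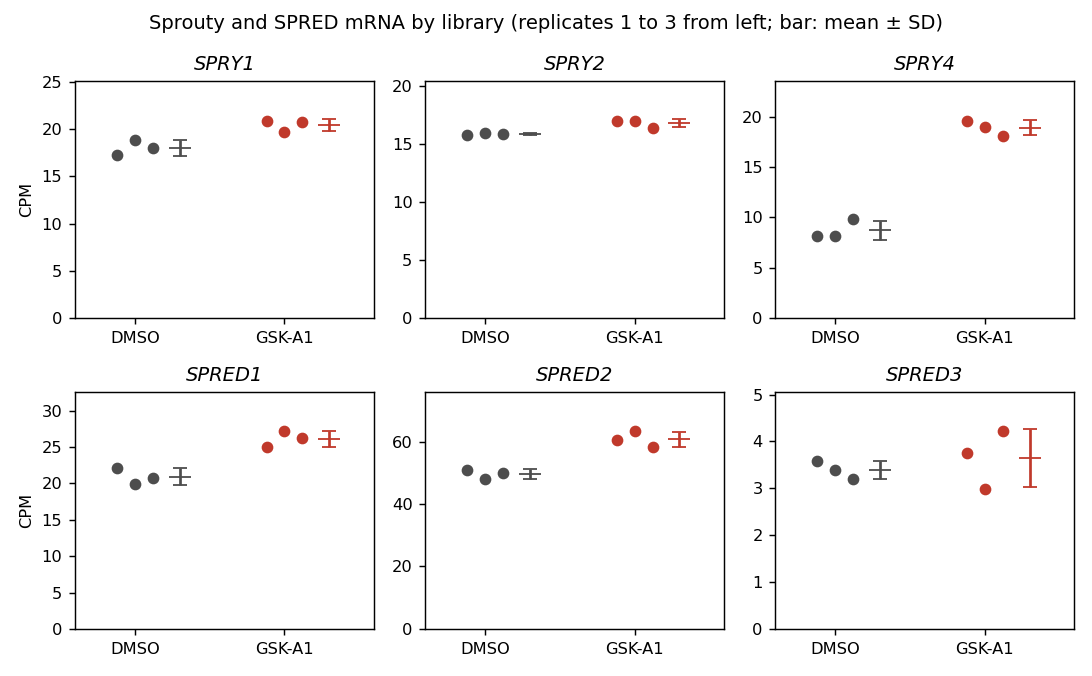
Normalised expression (CPM, vertical axes from 0) of the 6 members in each library, with points for replicates 1 to 3 and a bar for the mean ± SD of 3 libraries. SPRY4 shows the widest gap between DMSO (8.18 to 9.84 CPM) and GSK-A1 (18.1 to 19.6 CPM), and SPRED3 is the member whose groups overlap.

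The SPRED genes were read next. SPRED1 (ENSG00000166068; chromosome 15, 38252326 to 38357249, plus strand), loss of which causes Legius syndrome, read 22.1, 19.9 and 20.8 CPM in the DMSO libraries and 24.97, 27.1 and 26.3 CPM in the GSK-A1 libraries. The groups did not overlap. Its log2 fold change was 0.32 ± 0.06 (SE; 95% interval 0.20 to 0.44; edgeR adjusted p = 0.00103). SPRED2 (ENSG00000198369; chromosome 2, 65310851 to 65432637, minus strand), which like SPRED1 inhibits RAF activation downstream of RAS, read 50.8, 47.9 and 50.03 CPM in the DMSO libraries and 60.4, 63.3 and 58.3 CPM in the GSK-A1 libraries. Again each treated library exceeded each control library. Its log2 fold change was 0.29 ± 0.05 (SE; 95% interval 0.20 to 0.39; edgeR adjusted p = 3.17e-04). Both were called in all 17 alternatives, SPRED1 at 0.28 to 0.36 and SPRED2 at 0.25 to 0.32.

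SPRED3 (ENSG00000188766; chromosome 19, 38388421 to 38399587, plus strand) encodes a SPRED protein without a working KIT-binding domain and was the least abundant member. The DMSO libraries read 3.59, 3.38 and 3.20 CPM and the GSK-A1 libraries 3.76, 2.99 and 4.22 CPM. The groups overlapped, because GSK-A1 replicate 2 was the lowest of all 6 libraries and GSK-A1 replicate 3 the highest. This gave a log2 fold change of 0.11 ± 0.12 (SE), which edgeR did not call (adjusted p = 0.576). Its 95% interval, from -0.15 to 0.37, includes the estimates for SPRED1 and SPRED2, so a change of their size was not excluded for SPRED3. Its counts were 102 to 175 per library, against 1658 to 2817 for SPRED2. With replicate 2 of the GSK-A1 group left out the estimate was 0.22, and with replicate 3 left out it was 0.0085, and SPRED3 was called in neither case.

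**Figure D2:**
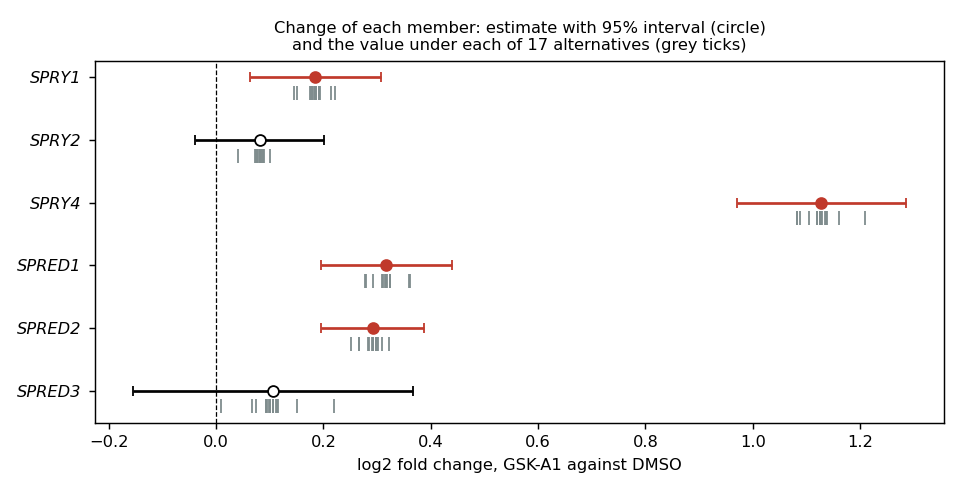
Log2 fold change of each member (horizontal axis) with its 95% interval, filled where called and open where not, and grey ticks for the value in each of 17 alternative analyses. SPRY4 at 1.13 stands to the right of the other members, whose estimates lie between 0.08 and 0.32.

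Whether members differed in their response was read from ratios of raw counts within a library, which do not depend on library scaling. All 15 pairs were computed, a step added after the fold changes were known. The count ratio of SPRY2 to SPRY4 was 1.93, 1.95 and 1.62 in DMSO replicates 1 to 3 and 0.865, 0.899 and 0.908 in GSK-A1 replicates 1 to 3. Thus SPRY2 had the larger count in every DMSO library and SPRY4 in every GSK-A1 library. After division by exonic length SPRY2 stayed higher with GSK-A1, at a mean of 5.54 against 2.88 CPM per kb. The mean log2 ratio fell by 1.04 (exact two-sided permutation p = 0.1, the smallest that 3 against 3 libraries allow; 0.214 after adjustment over the 15 pairs). All 5 pairs that include SPRY4 separated the groups without overlap, at the same p. The ratio of SPRY2 to SPRED1 and that of SPRY2 to SPRED2 also did, with mean log2 ratios that fell by 0.24 and 0.21. The ratio of SPRED1 to SPRED2 was 0.435, 0.415 and 0.416 with DMSO and 0.413, 0.429 and 0.451 with GSK-A1 (exact permutation p = 0.7). These ranges overlapped. In all, 7 of the 15 pairs did not overlap, and none could reach a p under 0.05 in a design of this size. Pairs share members, with SPRY4 in 5 of these 7 and SPRY2 in the rest, so they are not separate results. The share of ratios between other genes that separate the groups was not computed, and for single genes it was 40.5%.

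Levels were compared between members after division by exonic length, in CPM per kb of the exons that GENCODE 29 merges for each gene. In DMSO libraries the order was SPRED2 at 9.62 ± 0.29, SPRY2 at 5.24 ± 0.03, SPRY1 at 4.54 ± 0.21, SPRED1 at 2.53 ± 0.14, SPRY4 at 1.33 ± 0.15 and SPRED3 at 0.578 ± 0.033 CPM per kb (SD, n = 3). No neighbours in that order overlapped between libraries. With GSK-A1 the order was the same, but SPRY4, at 2.76 to 2.99 CPM per kb, had come close to SPRED1, at 3.02 to 3.29. Length scaling placed SPRED2 at the percentile 74.4 and SPRY4 at 37.6 of the 16101 tested genes with a known length. The lengths assume that every annotated exon is used, which gene counts do not show.

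Summed over the 6 members, the length-scaled level was 23.9, 23.5 and 24.0 CPM per kb in DMSO replicates 1 to 3 and 29.2, 29.6 and 28.6 CPM per kb in GSK-A1 replicates 1 to 3. The sum was higher in each GSK-A1 library than in any DMSO library. The mean increment was 5.29 CPM per kb, of which SPRED2 contributed 2.15 and SPRY4 1.55. SPRED2 thus added more than SPRY4 on this scale despite its smaller fold change. SPRY1, SPRED1, SPRY2 and SPRED3 added 0.615, 0.631, 0.301 and 0.0448 CPM per kb. The share of SPRY4 in the sum went from 5.58% ± 0.57 to 9.88% ± 0.30 (SD, n = 3). That of SPRED2 was 40.4% ± 0.8 with DMSO and 40.4% ± 1.0 with GSK-A1, and that of SPRY2 went from 21.97% ± 0.33 to 19.0% ± 0.1.

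**Figure D3:**
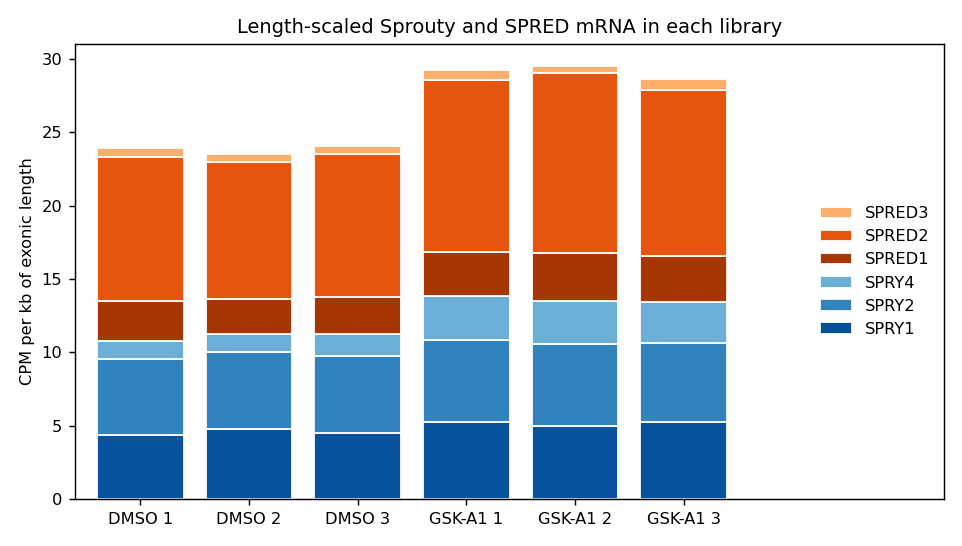
Stacked bars of length-scaled expression (CPM per kb of exonic length, axis from 0) of the 6 members in each of the 6 libraries. Bars reach 23.5 to 24.0 with DMSO and 28.6 to 29.6 with GSK-A1, with SPRED2 the largest block in each and the SPRY4 block about doubled.

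The other genes of the pathway were read from 7 lists written from general knowledge, with earlier results of these data known. Of 19 genes known as outputs of ERK signalling, 15 were called higher, against 12% of all genes, and 1 lower, and their median on the log2 scale was 0.35. The 5 with the smallest p-values were the transcription factors EGR1 (2.22 ± 0.06), ETV4 (1.72 ± 0.06), FOS (1.87 ± 0.08) and ETV5 (1.04 ± 0.06) and the pseudokinase TRIB1 (0.34 ± 0.04), as log2 fold changes ± SE with edgeR adjusted p of at most 2.31e-05. Members of this list were not uniform. EPHA4, an ephrin receptor, fell by 0.23 on the log2 scale (edgeR adjusted p = 0.0064), while CCND1, which encodes cyclin D1, PHLDA1 and the ERK phosphatase gene DUSP7 were not called, at 0.0059, 0.03 and -0.05. No gene of the list was called lower without DMSO replicate 2 or without GSK-A1 replicate 1, so the EPHA4 call was lost there. EPHA4 and these 3 were chosen after their values were seen. SPRY4 exceeded 16 of the 19 output genes in log2 fold change, SPRED1 exceeded 8, SPRED2 exceeded 7, and SPRY1, SPRY2 and SPRED3 exceeded 4 each.

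Among other feedback inhibitors of receptor tyrosine kinases, 3 of 16 tested genes were called higher and 1 lower, 25% against 22.9% of all genes. Their median of 0.05 was 0.0066 under upper-quartile factors, 0.03 without DMSO replicate 1, 0.08 without DMSO replicate 2, and 0.10 when replicate 1 of the GSK-A1 group was left out. ERRFI1, an inhibitor of the EGF receptor, rose by 0.47 ± 0.05 on the log2 scale (edgeR adjusted p = 4.73e-06). The adaptor gene SH2B3 rose by 0.20 ± 0.06, and the docking protein gene DOK3 fell by 0.31 ± 0.09 on the same scale. The SH2B3 call was lost under upper-quartile factors, under DESeq2 and without DMSO replicate 2 or 3 or replicate 1 or 3 of GSK-A1 (adjusted p from 0.0507 to 0.129), and the DOK3 call without DMSO replicate 1 (0.103). The 4 calls became 2 under upper-quartile factors, under DESeq2 and without DMSO replicate 1, 2 or 3 or GSK-A1 replicate 1. Receptor genes upstream of RAS had 4 called higher and 1 lower of 19, 26.32% in all, but 2 higher and 3 lower under upper-quartile factors. Their median of 0.07 was 0.03 under those factors, 0.03 without DMSO replicate 1 and 0.04 without DMSO replicate 2. IGF1R rose by 0.20 ± 0.04, KIT, whose product some SPRED proteins bind, by 0.21 ± 0.05, and INSR by 0.16 ± 0.05. The lower call was PDGFRA, at -0.45 ± 0.15 (edgeR adjusted p = 0.0333), a gene chosen after its values were seen. No receptor gene was called lower under DESeq2 or without DMSO replicate 1, among other settings. The INSR call was lost under upper-quartile factors (adjusted p = 0.073) and without DMSO replicate 1, 2 or 3 (0.107, 0.0572 and 0.0906). The 5 calls became 2, 3 and 2 without DMSO replicates 1, 2 and 3 and 8 without GSK-A1 replicate 2.

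Adaptors and exchange factors between receptor and RAS had 7 called higher and 1 lower of 18, 44.44% against 22.9% of all genes. The lower call was absent under RLE factors, DESeq2, limma-voom, non-robust edgeR, the legacy edgeR option and no count filter. It was also absent without any 1 library other than GSK-A1 replicate 2, and at an adjusted p under 0.01. The median of the list was 0.11, and 0.07 under upper-quartile factors. GAB2 rose by 0.51 ± 0.06, PTPN11, the phosphatase SHP2, by 0.24 ± 0.03 and SHC3 by 0.43 ± 0.09 on the log2 scale. Their 8 calls became 5 under upper-quartile factors, 4, 4 and 3 without DMSO replicates 1, 2 and 3, and 5 without GSK-A1 replicate 1. In the RAS, RAF, MEK and ERK core, 4 of 17 genes were called higher and 3 lower, 41.18% against 22.9% of all genes. Upper-quartile factors gave 3 higher and 4 lower. Their median of 0.05 was 0.01 under those factors, 0.01 without GSK-A1 replicate 2 and 0.03 without DMSO replicate 3. BRAF rose by 0.21 ± 0.05 and HRAS fell by 0.30 on the log2 scale. The 7 calls became 4, 4 and 3 without DMSO replicates 1, 2 and 3 and 3 without GSK-A1 replicate 1.

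Genes for proteins that act with SPRED and Sprouty were read last. RAS GTPase-activating proteins and SPRED partners had 2 of 9 called, both higher, 22.22% against 22.9% of all genes. Their median was 0.0096. That median was -0.03 under upper-quartile factors, -0.02 with a filter of at least 1 CPM, and between -0.0076 (without DMSO replicate 1) and 0.03 (without DMSO replicate 3) with 1 library left out. RASA2 rose by 0.29 ± 0.06 and NF1 by 0.13 ± 0.04 (edgeR adjusted p = 0.0171), and the NF1 call was lost under upper-quartile factors (0.0763). NF1 was also not called without DMSO replicate 1 or 2 or GSK-A1 replicate 1, where the list had 1 call. Of 19 partners and modifiers of Sprouty proteins, 3 were called higher and 1 lower, a share of 21.05% against 22.9% over all genes. Their median of -0.0032 turned positive under RLE factors (0.0031), without a filter, under DESeq2 and without any 1 library, reaching at most 0.03. CBL rose by 0.26 ± 0.05, and PPP2CB, a catalytic subunit of protein phosphatase 2A, and SH3KBP1, a CBL partner, by 0.21 ± 0.04 and 0.21 ± 0.05.

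**Figure D4:**
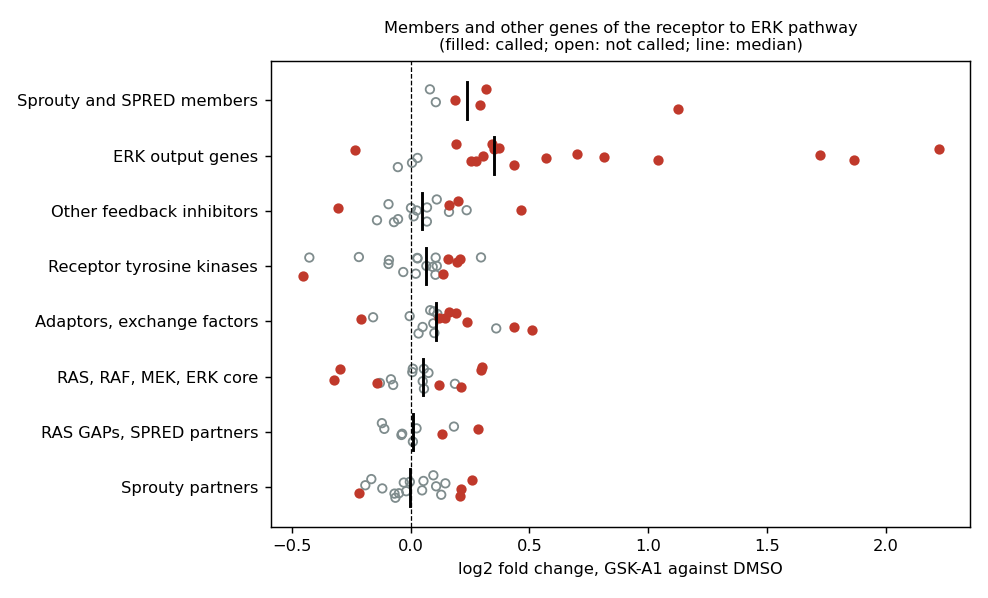
Log2 fold change (horizontal axis) of each tested gene of the member list and of 7 pathway lists, filled where called, with a line at each list's median. Medians are 0.24 for the members and 0.35 for the ERK output genes, and lie between -0.0032 and 0.11 for the other 6 lists.

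The genes whose library profiles were nearest to each called member were found among 10948 other genes with a mean of at least 5 CPM. The measure was the root mean square difference over 6 libraries of log2 CPM, each gene set to its DMSO mean. Nearest to SPRY4 were KLF6, a zinc-finger transcription factor, at 0.10, ETV5 at 0.10 and the collagen gene COL12A1 at 0.12. KLF6 had a mean of 41.4 ± 1.8 CPM in DMSO libraries and 85.1 ± 3.4 CPM in treated ones, and ETV5 of 33.3 ± 3.0 and 68.4 ± 0.5 CPM (SD, n = 3). Nearest to SPRED2 were SMAD1, RO60 and LIN28B, each at 0.02. LIN28B was also among the 3 nearest to SPRED1, at 0.04, after TUBB2A and UCHL3, both at 0.03. Nearest to SPRY1 were B3GNTL1, SMAD3 and PTPRA, each at 0.02, of which B3GNTL1 was not called (edgeR adjusted p = 0.0857). Small changes such as those of SPRY1, SPRED1 and SPRED2 may be near many genes, but how many lay near each member was not counted. All neighbours were picked for a like profile, so their similar change follows from that choice.

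Libraries held 33040178 to 47777233 counts. GSK-A1 replicate 2 stood apart, with a chi-square per gene of 10.98 and 15.52 against the other GSK-A1 libraries, while those differed from each other by 2.88. Without it SPRY4, SPRED1, SPRED2 and SPRY1 were all called, at 1.14, 0.29, 0.27 and 0.21. Of 10 genes linked to the HEK293 lineage, 8 were tested, and NEFM and INA were near 0. The level summed over all 10 was 2206 to 2281 CPM with DMSO and 2354 to 2551 with GSK-A1, most of it from VIM and NEFL. Its members did not move one way, since VIM and KRT8 were called higher (log2 fold changes 0.17 and 0.11) while PAX2, a kidney-lineage transcription factor gene, fell by 0.43 on the log2 scale (edgeR adjusted p = 0.0177, no overlap between groups). Of 12 genes of other cell types only COL1A1 and ACTA1 passed the filter, and the sum over all 12 was 7.63 to 8.48 CPM with DMSO and 5.71 to 7.83 with GSK-A1. The part of these differences in the member values was not tested.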

How the data were processed

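RNA was measured in 6 libraries of HEK293 cells, 3 per treatment, prepared with a strand-keeping kit per the labels' protocols. The deposited table gives whole-number read counts for each gene, not normalized. The submitters' processing notes name cutadapt 5.1, STAR 2.7.11b, featureCounts, Subread 2.1.1, DESeq2 1.38.0 and the build GRCh38.p13, without their roles. Annotation release, strand setting and filters are not given in the sources used here. Every library carries the same lane label, so no lanes could be compared. Batches of culture or library preparation are not given.

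Counts were tested with edgeR 4.0.16 in R 4.3.3: filterByExpr (smallest count 10, smallest total 15), TMM factors, robust dispersions and the quasi-likelihood F test, with Benjamini-Hochberg adjustment over all 16754 genes and a threshold of 0.05. A standard error is the size of the log2 coefficient over the square root of its F. Total counts per library were 33040178 to 47777233, members had 102 to 2817 counts, and the common biological coefficient of variation was 4.06%. Libraries carry no molecular identifiers. In GENCODE 29 (GRCh38), used for positions and lengths, no other gene overlapped a member's exons, and at most 1.44% of the 50-base stretches of a member's longest transcript occurred in other genes (SPRED1). Promoters came from RefSeq on GRCh38.p14, which listed all 6 members. Code was tested on simulated data.

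The members and lists were chosen with earlier results of these data known. Named genes were all members, the 5 called ERK output genes with the smallest p, up to 3 called genes of each other list by p, and the 3 genes nearest to each called member. One gene that this rule names is not reported here. No 2 libraries agreed within sampling noise. Same-numbered libraries deviated together with correlations of 0.01 to 0.03, so numbers were not used to pair them. Alternatives were other factors, filters, edgeR options, limma-voom 3.58.1, DESeq2 1.42.0, a replicate block, a threshold of 0.01 and each library left out.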

Additional observations from a re-analysis of the deposited data

How the results depend on the processing

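No member changed direction under any of the 17 alternatives, and the calls for SPRY4, SPRED1 and SPRED2 and the lack of a call for SPRY2 and SPRED3 held in each. SPRY1 lost its call under upper-quartile factors (0.14), at an adjusted p under 0.01 (0.19 with edgeR adjusted p = 0.0295) and in 4 of the 6 fits without 1 library, whose values ran from 0.15 to 0.22. The number of members called was 3 in those settings and 4 in the others. At an adjusted p under 0.01, 1871 genes and 28 pathway genes were called, against 3835 and 46. Those 46 were 39.32% of the 117 tested genes of the pathway lists, against 22.9% of all genes. Of the 46, 16 were on the list of ERK output genes, and the lists were written with earlier results known. Leaving out 1 library gave 2163 to 4890 genes and 29 to 52 pathway genes. Each such fit had fewer libraries, and the cause of these differences was not tested. The replicate block gave 4127 genes, 47 pathway genes and 4 members, and changed no member's call. GSK-A1 replicates 2 and 3 deviated most like the same-numbered DMSO library, with correlations of 0.019 and 0.032. GSK-A1 replicate 1 deviated about as much like DMSO replicate 2 (0.012) as like DMSO replicate 1 (0.011). Of the 32 other genes that the naming rule gives, 26 kept their side of the threshold in every alternative and none changed direction. SPRED3 had the fewest counts of the members, 102 to 175 per library, and the part of depth in its wide interval was not tested.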

Other observations

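SPRY3, the remaining Sprouty gene of the human genome, was counted at 4 to 11 reads per library and did not pass the filter on low counts. SPRY4-AS1, a long noncoding RNA gene on the strand opposite SPRY4 with which it shares no annotated exon, was counted at 2 to 8 reads per library and was not tested either. It was chosen after its values were seen. Neither gene was tested, so no difference between GSK-A1 and DMSO is reported for SPRY3 or SPRY4-AS1.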
